A study of Mus musculus with 8 samples.

Results

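The small leucine-rich proteoglycans are secreted matrix proteins that carry leucine-rich repeats. The 8 genes described here, Dcn, Bgn, Aspn, Lum, Fmod, Prelp, Omd and Ogn, were followed with every probe set annotated to only 1 of them. This gave 18 of the 22626 non-control probe sets on the array and 8 of 12393 genes. Fmod had 6 of them, Bgn 3, Aspn, Prelp and Ogn 2 each, and Dcn, Lum and Omd 1 each. All 18 reached the floor on at least 1 array and entered the tests. The cells were mouse embryonic fibroblasts of a C57BL/6 x 129Ola background, connective tissue cells cultured from embryos. Their genotypes were Tbk1-/- Ikbke-/- (called double mutant), Tbk1-/- Ikbke+/+ (Tbk1-/-), Tbk1+/+ Ikbke-/- (Ikbke-/-) or Tbk1+/+ Ikbke+/+ (WT). The kinases encoded by Tbk1 and Ikbke are close relatives and switch on interferon regulatory factors. Cells of each of the 4 genotypes received B-DNA (a synthetic double-stranded DNA of A and T) or a mock transfection for 4 h, and each of the 8 combinations was hybridised to 1 array. Whether the arrays of a genotype came from separate cultures or embryos is not stated, nor whether a genotype is 1 isolate of cells.

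In the extracellular matrix these proteoglycans sit on collagen fibrils and set their spacing and width. Decorin (Dcn), biglycan (Bgn) and asporin (Aspn) form one branch, of which decorin and biglycan carry chondroitin or dermatan sulfate chains and also bind TGF-beta. Lumican (Lum), fibromodulin (Fmod), PRELP (Prelp) and osteomodulin (Omd) form the second branch, in which lumican, fibromodulin and osteomodulin can carry keratan sulfate. Osteoglycin (Ogn), also called mimecan, belongs to another branch. Fibroblasts, tendon cells, chondrocytes and bone cells make different mixtures of them.

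Signals below are on a linear scale, each array multiplied by a factor that set its 2% trimmed mean to 500. The floor of 122 is the 40th percentile of all values, and a fold against signals under it is written "at least". Of the 9 fibroblast markers on the array, 8 or 9 reached the floor on each array, and Vim, an intermediate filament gene of mesenchymal cells, read between 22004 and 26664. The brighter Tbk1 probe set read 388 and 289 in the double mutant (B-DNA, then mock), 304 and 225 in Tbk1-/- cells, 905 and 469.9 in Ikbke-/- cells and 984 and 499 in WT cells, so it was lower without Tbk1 at each treatment. Ikbke stayed under the floor on every array, WT arrays included, and is no check of the labels. The Xist probe set with the highest signal read from 138 to 208 on the Ikbke-/- and double mutant arrays and from 2938 to 3749 on the Tbk1-/- and WT arrays, while Eif2s3y, on the Y chromosome, read from 152 to 285 and from 1.47 to 3.61. Embryo sex thus went with the Ikbke genotype, and the effects of either cannot be told apart.

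The proteoglycans differed more between genotypes than between treatments. Over the 4 genotype levels, each the mean log2 signal of the B-DNA and mock arrays, 15 of the 18 probe sets (83.3%) spanned 2-fold or more, against 22.4% of the 16410 probe sets that reached the floor. A span of 4-fold or more was found for 9 of 18 (50%), against 4.55% of all. By the brightest probe set of each gene, 7 of 8 spanned 2-fold or more and 6 of 8 spanned 4-fold or more. The median span of the 18 was 1.73 on the log2 scale, against 0.59 for all. B-DNA and mock arrays differed 2-fold or more in at least 1 genotype for 0 of the 18, against 8.83% of all. Among so few probe sets, 0 lies near that share and marks out no trait of the proteoglycans. It also depends on the floor and the scaling, as given below for Prelp and Omd. The span over genotypes exceeded the largest B-DNA difference for 18 of 18, against 56.6% of all. These are descriptions of 8 arrays and carry no test.

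**Figure D1:**
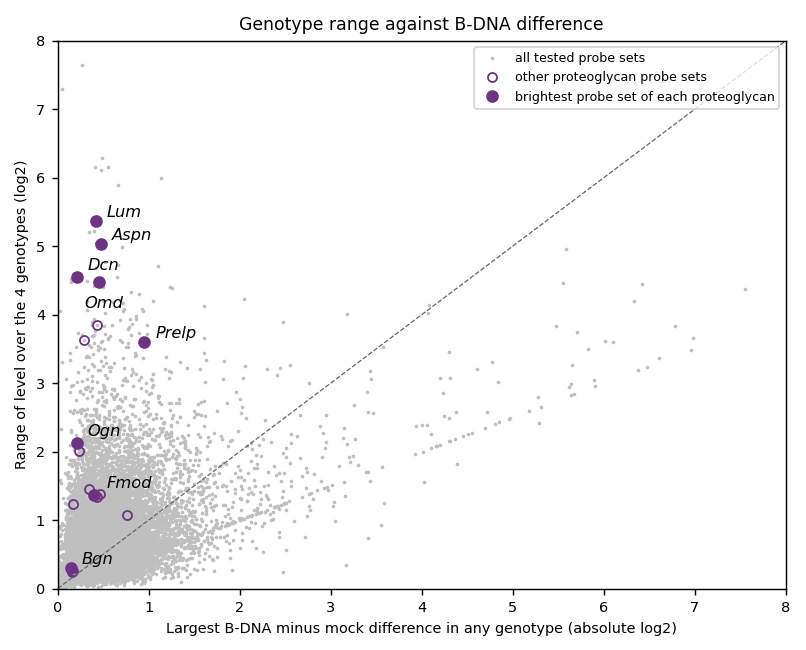
Each point is a probe set. The vertical axis is the span of its level over the 4 genotypes and the horizontal axis its largest absolute difference between a B-DNA and a mock array of 1 genotype, both in log2 units; the dashed line marks equal values. Filled purple points are the brightest probe set of each proteoglycan and open ones its other probe sets. Lum, Aspn, Dcn and Omd stand high at the left, with spans of 5.37, 5.04, 4.55 and 4.47, and Bgn lies near the origin with a span of 0.30.

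Decorin, a collagen-binding proteoglycan of most fibrous tissues, was high wherever Ikbke was missing. Its probe set (1449368_at) read 12661 and 13999 in the double mutant (B-DNA, then mock), 586 and 555 in Tbk1-/- cells, 5158 and 5026 in Ikbke-/- cells, and 671 and 777 in WT cells. Every array without Ikbke lay above every array with it, and the 4 genotypes did not overlap in signal. The double mutant was 18.4-fold above WT (log2 difference 4.20, SE 0.13, limma adjusted p = 0.00299) and Ikbke-/- cells were 7.05-fold above WT (2.82, SE 0.13, limma adjusted p = 0.00374). Tbk1-/- cells stood at -0.34 relative to WT (SE 0.13) and did not pass the test (limma adjusted p = 0.246).

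The standard errors and adjusted p-values of these genotype contrasts come from 1 fit on all 8 arrays with genotype and treatment as terms. In it the B-DNA and mock arrays of a genotype act as its replicates, on the assumption that the genotype difference is the same under both treatments. That fit was added after the data were seen. Its p-values reflect no more than the spread between arrays. Where both arrays of a genotype were under the floor they were set to the same value, so their spread was not measured and the p-value leaves it out. The calls are fragile: with any 1 of the 8 arrays left out, between 0 and 4 of the 18 probe sets passed in the double mutant and in Tbk1-/- cells against WT and 0 in Ikbke-/- cells against WT, while the differences themselves moved little. The Dcn difference between double mutant and WT lay between 4.10 and 4.30 in those fits. That of Prelp ranged more widely, from -3.26 to -2.58. With 1 array left out, a genotype still rests on its other array, which may be of the same cells. The steadiness of a difference is therefore no measure of whether a genotype would repeat.

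Biglycan, the closest relative of decorin, was the member that differed least. Its brightest probe set (1437889_x_at) read 21627 and 23239 in the double mutant, 20687 and 18684 in Tbk1-/- cells, 21283 and 19271 in Ikbke-/- cells, and 24484 and 24083 in WT cells. The WT arrays were the highest, and the span over genotypes was 1.24-fold. Over its 3 probe sets, the log2 difference from WT ran from -0.20 to -0.12 in the double mutant, from -0.30 to -0.21 in Tbk1-/- cells and from -0.26 to -0.16 in Ikbke-/- cells. None of these passed the test (lowest limma adjusted p = 0.272), with standard errors of 0.12 or 0.13.

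Asporin, which binds collagen without a glycosaminoglycan chain, was lowest in Tbk1-/- cells. Its brighter probe set (1416652_at) read 1467 and 1434 in the double mutant, 133 and 185 in Tbk1-/- cells, 5305 and 4995 in Ikbke-/- cells, and 2617 and 2928 in WT cells. The 4 genotypes did not overlap, in the order Ikbke-/-, WT, double mutant, Tbk1-/-. Tbk1-/- cells were 17.6-fold below WT (log2 difference -4.14, SE 0.17, limma adjusted p = 0.00356), and the double mutant was 1.91-fold below WT (-0.93, limma adjusted p = 0.0329). Ikbke-/- cells stood at 0.90 above WT and did not pass (limma adjusted p = 0.0805). The dimmer probe set (1448421_s_at) kept this order, reading 439.6 and 519, then 42.1 and 44.3, then 1553 and 1468, then 929.6 and 763 in the same genotypes. Both of its Tbk1-/- signals were under the floor, which put Tbk1-/- cells at least 6.93-fold below WT.

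**Figure D2:**
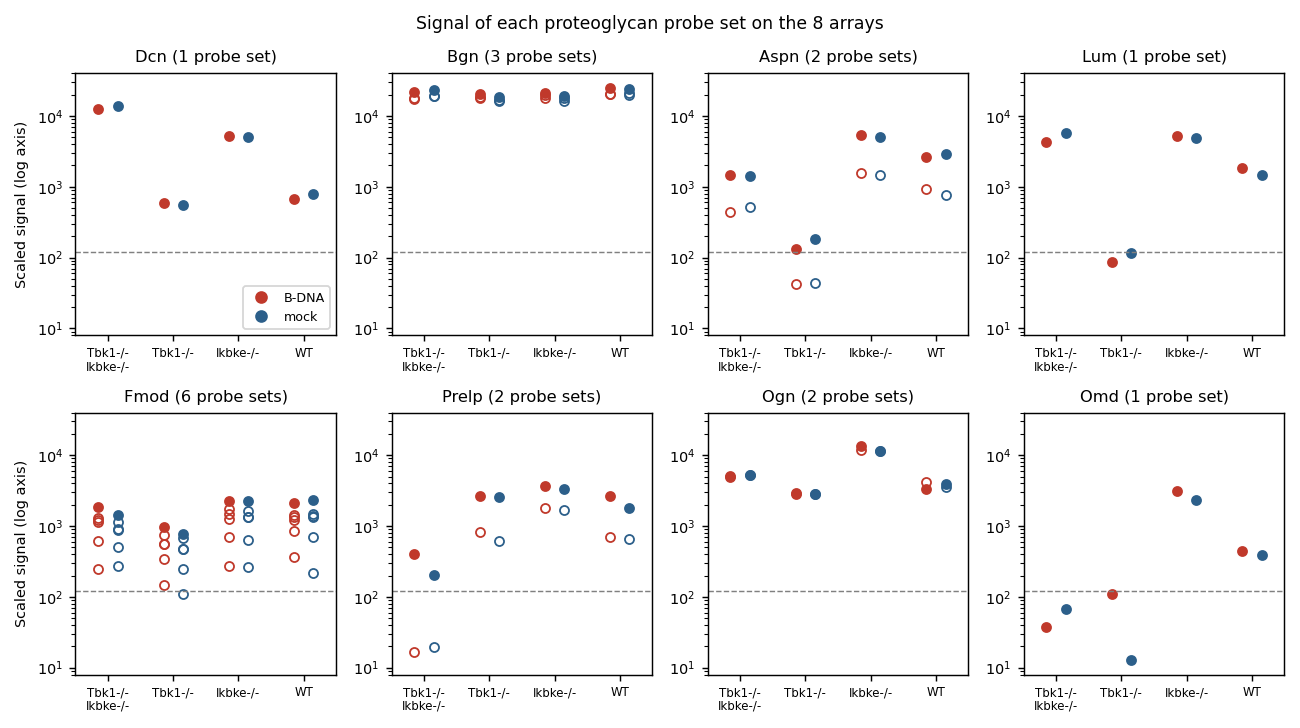
Scaled signal (log axis) of every proteoglycan probe set on the 8 arrays, by genotype, with B-DNA in red and mock in blue. Filled points are the brightest probe set of a gene, open points its others, and the dashed line is the floor of 122. Red and blue points of a genotype lie close together in most panels, while Dcn, Aspn, Lum, Prelp and Omd shift between genotypes and Bgn stays between 16103 and 24484 over its 3 probe sets.

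Lumican, the corneal and skin keratan sulfate proteoglycan, was under the floor in Tbk1-/- cells and high in both genotypes without Ikbke. Its probe set (1423607_at) read 4287 and 5747 in the double mutant, 86.7 and 117 in Tbk1-/- cells, 5278 and 4794 in Ikbke-/- cells, and 1810 and 1453 in WT cells. Both Tbk1-/- signals were under the floor, and the double mutant and Ikbke-/- arrays overlapped above the WT arrays. The double mutant was 3.06-fold above WT (log2 difference 1.61, SE 0.20, limma adjusted p = 0.0144) and Ikbke-/- cells were 3.10-fold above it (1.63, SE 0.20, limma adjusted p = 0.0303). Tbk1-/- cells were at least 13.3-fold below WT (limma adjusted p = 0.00467). Dcn and Lum are neighbours on chromosome 10, and both were higher in the Ikbke-/- genotypes than in WT, but the Lum signal in the double mutant did not exceed that in Ikbke-/- cells (log2 difference -0.02, SE 0.20) as the Dcn signal did (1.39, SE 0.13, limma adjusted p = 0.00589).

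Fibromodulin, which modulates collagen fibril growth in tendon and cartilage, moved in a narrower range. Its brightest probe set (1415939_at) read 1877 and 1423 in the double mutant, 980.4 and 776 in Tbk1-/- cells, 2254 and 2235 in Ikbke-/- cells, and 2131 and 2306 in WT cells. The Tbk1-/- arrays were the lowest and did not overlap with any other genotype. They were 2.54-fold below WT (log2 difference -1.35, SE 0.17, limma adjusted p = 0.0296), and over the 6 Fmod probe sets this difference ran from -1.41 to -1.04, with 5 of the 6 past the test. The double mutant stood between -0.45 and -0.11 and Ikbke-/- cells between -0.21 and 0.20 relative to WT, with no probe set past the test. The other 5 bear the suffix of probe sets that may share probes with other transcripts, so they are not separate measurements of the gene beyond doubt. The Bgn probe set 1437889_x_at, the Aspn probe set 1448421_s_at and the Prelp probe set 1416321_s_at bear suffixes of this kind as well.

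PRELP, a heparin-binding member of basement membranes and cartilage, was lowest in the double mutant. The brighter probe set (1416321_s_at) read 398 and 206 in the double mutant, 2678 and 2539 in Tbk1-/- cells, 3660 and 3313 in Ikbke-/- cells, and 2649 and 1768 in WT cells. The double mutant arrays lay far below the other 6, and the Tbk1-/- and WT arrays overlapped. The double mutant was 7.57-fold below WT (log2 difference -2.92, SE 0.25, limma adjusted p = 0.00675). Tbk1-/- cells (0.27, SE 0.25, limma adjusted p = 0.618) and Ikbke-/- cells (0.69, SE 0.25, limma adjusted p = 0.24) did not pass. The double mutant was also 9.12-fold below Tbk1-/- cells (limma adjusted p = 0.00364) and 12.2-fold below Ikbke-/- cells (limma adjusted p = 0.00387). The second probe set (1416322_at) read 16.9 and 19.9 in the double mutant, both under the floor, 829 and 613 in Tbk1-/- cells, 1817 and 1685 in Ikbke-/- cells, and 709 and 650.0 in WT cells. It placed the double mutant at least 5.58-fold below WT and Ikbke-/- cells 2.58-fold above WT (limma adjusted p = 0.0216). The probe sets thus differed on whether the Ikbke-/- level passed.

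Aspn, Omd and Ogn lie next to each other on mouse chromosome 13, and all of them had their highest signals in Ikbke-/- cells. This was not particular to them. Prelp, on chromosome 1, also had its highest signals there. The mean level of Lum and of the brightest Fmod probe set was highest there too, though it overlapped with another genotype. The 250 bases before the annotated starts of Aspn, Omd and Ogn are shown because these genes are neighbours, beside those of Bgn, which differed least. Those of Prelp and Fmod are not shown. They are from RefSeq on GRCm38.p6, written 5′ to 3′ on the gene's strand. They span chr13:49544193-49544442 for Aspn, chr13:49582212-49582461 for Omd, chr13:49607765-49608014 for Ogn and chrX:73483351-73483600 for Bgn, all on the plus strand. Capitals mark TATAAA on either strand, where overlapping matches run together.
Aspn: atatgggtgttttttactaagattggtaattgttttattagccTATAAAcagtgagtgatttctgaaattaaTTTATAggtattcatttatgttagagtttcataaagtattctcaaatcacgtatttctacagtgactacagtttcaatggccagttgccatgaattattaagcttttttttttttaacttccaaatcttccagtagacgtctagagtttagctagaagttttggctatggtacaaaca
Omd: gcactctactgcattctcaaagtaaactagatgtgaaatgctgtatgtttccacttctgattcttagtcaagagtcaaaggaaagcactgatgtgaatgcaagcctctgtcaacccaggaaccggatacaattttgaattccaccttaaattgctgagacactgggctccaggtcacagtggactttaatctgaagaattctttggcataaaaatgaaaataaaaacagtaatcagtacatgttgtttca
Ogn: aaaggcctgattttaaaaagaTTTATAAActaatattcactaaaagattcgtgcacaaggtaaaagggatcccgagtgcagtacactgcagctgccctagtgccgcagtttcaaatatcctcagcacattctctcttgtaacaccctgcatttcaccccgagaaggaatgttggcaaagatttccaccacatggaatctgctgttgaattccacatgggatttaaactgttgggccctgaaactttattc
Bgn: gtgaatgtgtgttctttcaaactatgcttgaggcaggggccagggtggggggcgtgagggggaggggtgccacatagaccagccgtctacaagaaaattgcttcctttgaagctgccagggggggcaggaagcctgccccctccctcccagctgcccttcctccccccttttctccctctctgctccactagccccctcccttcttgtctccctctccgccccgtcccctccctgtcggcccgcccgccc
The letters TATAAA were found in the Aspn window 207 and 178 bases before the start and in the Ogn window 227 and 229 bases before it, where the matches on both strands overlap. They were not found in the Omd and Bgn windows, and 12.4% of 32851 such mouse windows hold them. TGANTCA, the letters bound by AP-1, and GAAA followed after any 2 bases by GAAA, those bound by interferon regulatory factors, were searched on both strands and occur in 6.75% and 2.98% of all windows and in none of these 4. The share of G and C was 30% for Aspn, 38.4% for Omd, 42% for Ogn and 64.4% for Bgn.

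Osteomodulin, a keratan sulfate proteoglycan of bone and dentin, reached the floor only on arrays of cells with Tbk1. Its probe set (1418745_at) read 37.5 and 67.6 in the double mutant, 111 and 12.9 in Tbk1-/- cells, 3151 and 2308 in Ikbke-/- cells, and 438 and 395 in WT cells. All 4 arrays without Tbk1 were under the floor, at least 3.42-fold below WT in each genotype (limma adjusted p = 0.00729 for the double mutant and 0.013 for Tbk1-/- cells). Those arrays were all set to the floor, so these p-values hold none of the spread between them. Ikbke-/- cells were 6.48-fold above WT (log2 difference 2.70, SE 0.15, limma adjusted p = 0.00714).

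Osteoglycin, first known from bone and also made by fibroblasts and vessel walls, was highest in Ikbke-/- cells. The probe set with the higher mean (1419662_at) read 4925 and 5266 in the double mutant, 2877 and 2803 in Tbk1-/- cells, 13308 and 11566 in Ikbke-/- cells, and 3360 and 3878 in WT cells. The 4 genotypes did not overlap. Ikbke-/- cells were 3.44-fold above WT (log2 difference 1.78, SE 0.14, limma adjusted p = 0.0119), and the double mutant (0.50, SE 0.14, limma adjusted p = 0.0876) and Tbk1-/- cells (-0.35, SE 0.14, limma adjusted p = 0.28) did not pass. The second Ogn probe set (1419663_at) gave 1.60, 0.41 and -0.40 in the same order, with the first of these past the test.

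**Figure D3:**
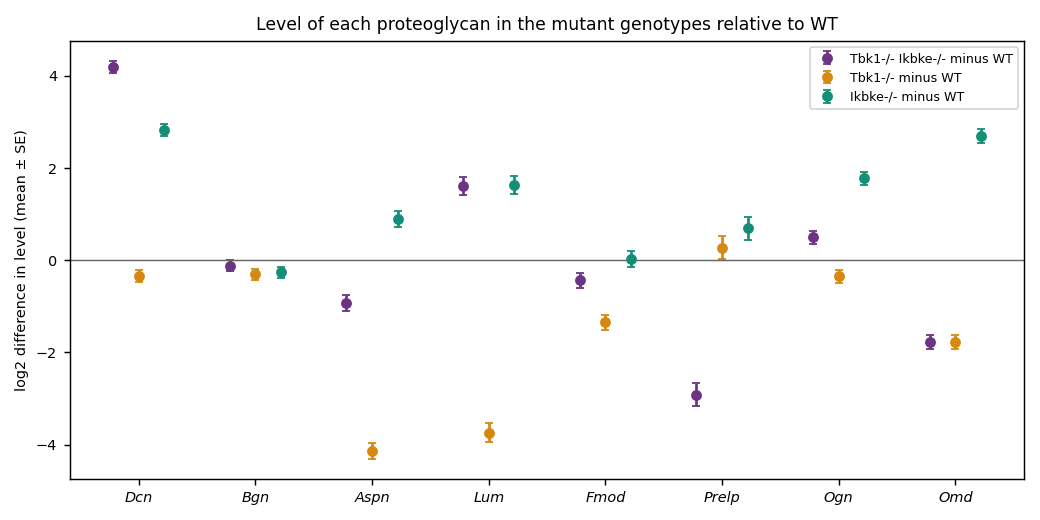
Log2 difference in level of the brightest probe set of each proteoglycan between a mutant genotype and WT, as mean ± SE of the fit on 8 arrays (B-DNA and mock arrays of a genotype together). Purple is the double mutant, orange Tbk1-/- and green Ikbke-/-. Lum in Tbk1-/- cells and Omd in the double mutant and Tbk1-/- cells were under the floor, so those points are bounds. Dcn reaches 4.20 in the double mutant, and Aspn falls to -4.14 in Tbk1-/- cells.

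Counted over the 18 probe sets, the double mutant was higher than WT for 2 and lower for 5 (Dcn and Lum, and Aspn, Prelp and Omd), against 7.63% and 4.92% of all probe sets. Tbk1-/- cells were lower than WT for 9 (Aspn, Fmod, Lum and Omd) and higher for 0, against 1.83% and 1.24% of all. Ikbke-/- cells were higher than WT for 6 (Dcn, Lum, Ogn, Omd and Prelp) and lower for 0, against 1.17% and 1.38% of all. Probe sets of 1 gene are not separate members, and 5 of the 9 lower in Tbk1-/- cells were of Fmod. By the brightest probe set of each of the 8 genes, the double mutant was higher than WT for 2 and lower for 3. Tbk1-/- cells were higher for 0 and lower for 4, and Ikbke-/- cells were higher for 4 and lower for 0. All these counts share the WT arrays. In single pairs of arrays, counting differences of 2-fold or more with the higher signal at 243 or more and with no test, the double mutant differed from WT for 6 of 18 with B-DNA and 6 with mock, against 14.2% and 10.9% of all. Tbk1-/- cells differed for 9 and 9, against 10.3% and 5.61%, and Ikbke-/- cells for 7 and 6, against 6.22% and 5.18%. Calls in one direction among all probe sets depend on the scaling: without further scaling of the deposited signal 176 were higher and 1039 lower in the double mutant, in place of 1252 and 807, while the proteoglycans stayed at 2 and 5. In Tbk1-/- cells the unscaled signal gave 0 higher and 4 lower proteoglycan probe sets, with 98 higher and 97 lower among all in place of 204 and 301. In Ikbke-/- cells it gave 5 and 0, with 84 and 40 in place of 192 and 226.

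The mutants also differed from each other. Tbk1-/- cells were higher than Ikbke-/- cells for 0 of the 18 probe sets and lower for 13, against 2.05% and 2.11% of all. Lum and Omd were at least 41.4-fold and 22.2-fold lower, Aspn was 32.8-fold lower and Dcn 8.93-fold lower in Tbk1-/- cells. The double mutant was higher than Tbk1-/- cells for 12 and lower for 2, both of Prelp, against 11.8% and 8.15% of all. The 12 were of Aspn, Dcn, Fmod, Lum and Ogn, with every Fmod probe set among them. It was higher than Ikbke-/- cells for 1, Dcn, and lower for 7, of Aspn, Ogn, Omd and Prelp, against 12.0% and 6.29% of all.

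The difference between cells without and with Tbk1 was not the same when Ikbke was absent and when it was present. Lum was 1.01-fold lower without Tbk1 when Ikbke was absent and at least 13.3-fold lower when it was present. Dcn was 2.61-fold higher when Ikbke was absent and 1.27-fold lower when it was present. Prelp (1416321_s_at) was 12.2-fold lower when Ikbke was absent and 1.20-fold higher when it was present. A test of the difference between these effects passed for 11 of the 18 probe sets, 6 above 0 and 5 below, against 8.53% and 5.41% of all, and for 0 to 4 with any 1 array left out. The 5 below 0 include Omd, whose 4 arrays without Tbk1 were all under the floor, so that only Ikbke-/- against WT was measured for it. By the brightest probe set of each of the 8 genes, 3 were above 0 and 3 below. Without further scaling 1 probe set was above 0 and 5 below, with quantile normalization 6 and 3, and with scaling to a common median 3 and 5.

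Fits that take the genotype as the unit have 4 values and 1 residual degree of freedom, and called no probe set at all. They also called none of the large changes put into simulated data, so their counts of 0 say nothing about the proteoglycans. For the level with and without Tbk1, 0 of 18 proteoglycan probe sets and 0% of all passed at a limma adjusted p under 0.05 (lowest among the 18, 0.877). At an unadjusted p under 0.05 there were 3 of 18, of Aspn and Omd, and 602 of all 16410. The median of the 18 was -0.81 on the log2 scale, against 0.04 for all. For the level with and without Ikbke, likewise 0 of 18 and 0% of all passed. Here 6 of 18, of Dcn, Aspn, Lum and Ogn, and 427 of all 16410 had an unadjusted p under 0.05. The median was 0.50, against 0.01 for all. By ranges of the arrays, 7 of 18 probe sets (of Aspn, Fmod and Omd, most of them of Fmod) were lower on every array without Tbk1 than on every array with it, against 2.34% of all. Likewise 4 of 18 (Dcn, Lum and Ogn) were higher on every array without Ikbke than on every array with it, against 3.56% of all.

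Within a genotype, no proteoglycan probe set differed 2-fold between the B-DNA and mock arrays at 4 h, with signals under the floor set to it. By the same rule for single pairs, 0 of 18 were called in the double mutant, against 1.52% of all, 0 in Tbk1-/- cells, against 0.792%, 0 in Ikbke-/- cells, against 4.67%, and 0 in WT cells, against 4.86%. Each of these rests on 1 B-DNA and 1 mock array and has no test, and among 18 probe sets 0 lies near each of these shares. The widest was the Prelp probe set 1416321_s_at in the double mutant, at 398 with B-DNA and 206 with mock (log2 difference 0.95), which passed 2-fold without further scaling and with quantile normalization. Omd in Tbk1-/- cells (111 with B-DNA and 12.9 with mock, both under the floor) passed 2-fold with the floor at the 20th percentile. An Fmod probe set (1438966_x_at) read 366 and 216 in WT cells (0.76). Averaged over the 4 genotypes, 0 of 18 passed limma's test and 0% of all did. With an unadjusted p under 0.05 there were 1 of 18 and 1302 of all 16410. The median of the 18 was 0.07. The dependence of the response on Tbk1 passed for 0 of 18, against 1.52% of all, and that on Ikbke for 0 of 18, against 0% of all. For both, 0 of 18 had an unadjusted p under 0.05, with 2529 and 778 of all 16410. Among 18 probe sets, counts of 0 or 1 mark out no trait of the proteoglycans.

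Markers of other mesenchymal and blood cells also differed between genotypes. Of 8 chondrocyte markers, 6 were higher in Ikbke-/- cells than in WT and 1, Col10a1, was lower, against 1.17% and 1.38% of all probe sets, and their summed signal was 38934 and 35927 in Ikbke-/- cells, against 5527 and 5339 in WT cells. It was 1793 and 1813 in the double mutant and 6413 and 6367 in Tbk1-/- cells. The fibrillar cartilage collagen Col2a1 read 25819 and 23356 in Ikbke-/- cells, against 3501 and 3194 in WT cells, and the cartilage proteoglycan Acan read 4862 and 4630, against 791 and 1005. Col9a1 and Matn1, cartilage matrix genes, were 5.11 and at least 3.73 above WT on the log2 scale. Aspn, Prelp, Omd and Ogn had their highest signals in those same Ikbke-/- cells, and the part of the chondrocyte markers in this was not tested. The 15 macrophage and leukocyte markers summed to 5261 and 15597 on the WT arrays (B-DNA, then mock), against 1368 to 1865 on the other 6 arrays. There the complement genes C1qb and C1qc and the cathepsin gene Ctss were under the floor, while 5 or 6 of the 15 reached it on each array. Lyz2, Csf1r, Cd14 and Laptm5 did so on all 8 arrays. Lyz2 read 1199 and 4969 in WT cells and 130.3 to 217 on the other 6 arrays (-4.22 in the double mutant against WT). Their part in the WT levels was not tested. Of the 9 fibroblast markers, 1 was higher and 3 lower in the double mutant than in WT (7.63% and 4.92% of all), 0 and 2 in Tbk1-/- cells and 0 and 3 in Ikbke-/- cells. Fbln1, a fibulin, was the one higher in the double mutant (2.11), while Mfap5, a microfibril gene, was lower in all 3 (-1.65, -2.30 and -2.49). In bulk RNA, fewer cells of a type and less RNA per cell cannot be told apart. The skeletal muscle markers Myod1, Myf5, Myog, Pax7 and Chrna1 and the bone markers Ibsp and Alpl were under the floor on all 8 arrays. So were the endothelial markers Cdh5, Tek and Tie1 and the epithelial markers Epcam and Cdh1. Other markers of these lists reached it. Among them, Sp7 (bone), Kdr (endothelial) and Krt8 (epithelial) did so on all 8 arrays, and Egfl7 (endothelial) on 6. The bone marker Dmp1 read 438 on the Ikbke-/- mock array and was under the floor elsewhere. The epithelial marker Krt19 read 897 and 991 in Tbk1-/- cells and was under the floor on all other arrays.

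**Figure D4:**
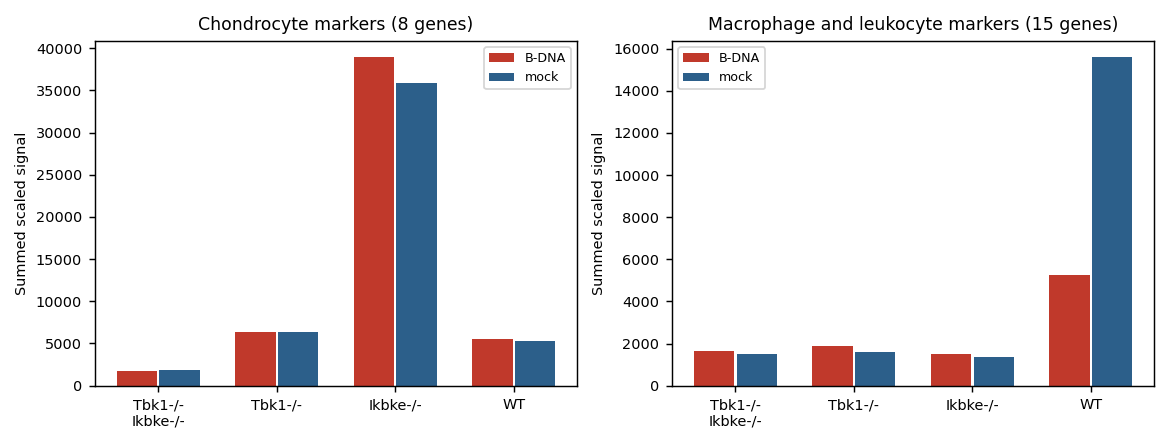
Summed scaled signal of the chondrocyte markers (left) and of the macrophage and leukocyte markers (right) by genotype, 1 bar per array, B-DNA in red and mock in blue. The chondrocyte sum is highest on the Ikbke-/- arrays (38934 and 35927), and the macrophage sum on the WT arrays (5261 and 15597).

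Genes around the proteoglycans in the matrix were read in the same fit, from lists of related function. The counts of each list stand beside the shares of all probe sets given above, which were 7.63% higher and 4.92% lower in the double mutant, 1.24% and 1.83% in Tbk1-/- cells, and 1.17% and 1.38% in Ikbke-/- cells. Of 11 fibrillar and fibril-associated collagens, 0 were higher and 6 lower in the double mutant than in WT, led by Col5a3 (log2 difference -2.44), Col12a1 (-1.73), Col2a1 (-1.64) and Col14a1 (-1.23). In Tbk1-/- cells 0 were higher and 2 lower, Col12a1 (-1.58) and Col14a1 (-1.17). In Ikbke-/- cells 4 were higher and 2 lower, led by Col11a2 (at least 3.30, with the WT B-DNA signal under the floor), Col2a1 (2.88), Col5a3 (-1.82) and Col11a1 (1.38). The most abundant fibrillar collagen genes of skin and bone, Col1a1 and Col1a2, passed in no mutant, with differences between -0.33 and 0.12. The list's median was -0.72 in the double mutant, -0.33 in Tbk1-/- cells and -0.21 in Ikbke-/- cells, against 0.03, -0.01 and -0.03 for all probe sets.

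Of 11 measured enzymes that cut these proteoglycans or their propeptides, 5 were higher and 2 lower in the double mutant than in WT, led by Adamts5 (log2 difference 3.03), Adamts1 (2.86) and Mmp3 (-1.87, with both double mutant signals under the floor), with Bmp1, which cleaves the biglycan propeptide, at 0.80. Adamts5, an aggrecan-cutting protease, read 4129 and 2501 in the double mutant, against 367 and 422 in WT cells, and Adamts1 read 5088 and 4672, against 649.9 and 690.0. In Tbk1-/- cells 0 were higher and 1 lower, and in Ikbke-/- cells 0 passed. Of 11 genes of the TGF-beta pathway, whose ligands bind decorin and biglycan, 1 was higher and 3 lower in the double mutant. Ccn2, a matrix protein induced by TGF-beta, stood at -4.09, Tgfbi, another, at 2.19, the latent TGF-beta binding protein Ltbp2 at -2.17 and the ligand Tgfb1 at -1.80. In Ikbke-/- cells 1 was higher and 1 lower, again Tgfbi (1.60) and Ltbp2 (-1.65), and in Tbk1-/- cells 0 passed. Of 10 measured receptors of free decorin or biglycan, Cd44 was lower in the double mutant (-1.72) and Igf1r in Tbk1-/- cells (-1.50).

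Of 17 measured genes of glycosaminoglycan chain synthesis, 3 were higher and 1 lower in the double mutant. They were led by Chst1 (at least 2.23, with both WT signals under the floor) and Chst7 (-1.19). There were 0 and 2 in Tbk1-/- cells and 0 and 0 in Ikbke-/- cells. Csgalnact1, which starts chondroitin chains, read 549 and 705 in the double mutant, 91.5 and 88.1 in Tbk1-/- cells, 275 and 254 in Ikbke-/- cells, and 243 and 353 in WT cells. Of 16 measured proteoglycans of other families, 0 were higher and 5 lower in the double mutant, led by Acan (-2.80, with the double mutant B-DNA signal under the floor) and the membrane proteoglycan Cspg4 (-1.97). There were 0 and 3 in Tbk1-/- cells, led by the syndecan Sdc4 (-1.57), and 2 and 0 in Ikbke-/- cells, led by Acan (2.41). Of 19 measured genes of collagen crosslinking and fibril assembly, 1 was higher and 7 lower in the double mutant, led by Thbs1 (-2.86), Matn2 (1.86), Thbs2 (-1.56) and Tnc (-1.49). In Tbk1-/- cells 0 were higher and 2 lower, Thbs2 (-2.94) and Pcolce2 (-1.21, with both Tbk1-/- signals under the floor). In Ikbke-/- cells 2 were higher and 2 lower, led by the matrilin Matn4 (5.16), which read 9296 and 7559, against 232 and 237 in WT cells. Of 4 further leucine-rich repeat matrix genes on the array, Kera, Optc and Chad were under the floor throughout. Epiphycan (Epyc), a relative of osteoglycin, read 816 and 967 in the double mutant, against 30.3 and 44.2 in WT cells, both under the floor, and was at least 2.87 higher on the log2 scale (limma adjusted p = 0.00506).

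The patterns of the members over the 8 arrays were set beside each other as the root mean square difference of their centred log2 signals. Lum and Omd were left out, since both had arrays under the floor. Among pairs of the other members this was smallest for Bgn and Fmod (0.51), and largest for Dcn and Prelp (3.06). The measure is small for any 2 genes that vary little. Bgn varied by 0.13 around its mean and Fmod by 0.57, so their 0.51 shows no shared pattern. Aspn and Ogn, which lie in the same cluster of genes, stood at 1.41, and Prelp and Fmod at 1.53. Among 3115 other genes above the floor on all arrays with at least a 2-fold spread, the gene nearest to Dcn was Ccn3 (0.38), a matricellular protein, with 5102 and 8824 in the double mutant, 401 and 479 in Tbk1-/- cells, 3191 and 2920 in Ikbke-/- cells, and 600.2 and 731 in WT cells. Next to Dcn came Tle2 (0.84) and Igdcc4 (0.90). Nearest to Aspn were the growth factor gene Igf2 (0.74), Thbs2 (1.0) and Ndn (1.03), nearest to Fmod were the microfibril gene Fbn2 (0.12), Lpar1 (0.17) and Smim10l1 (0.18), and nearest to Ogn were Kazald1 (0.17), Gpd2 (0.21) and Mertk (0.22). For Prelp they were Noct (0.41), H2-K1 (0.46) and Hmox1 (0.47), and for Bgn they were Lce1i (0.19), Rad54l2 (0.20) and Slc45a2 (0.21). Bgn itself varied by only 0.13, less than its distance from these genes, so they share no pattern with it by this measure. The arrays of a pair of genes are shared, so these values describe distances and carry no test.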

How the data were processed

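Total RNA of 8 mouse embryonic fibroblast samples, 1 for each of 4 genotypes and 2 treatments, was measured on 1-colour Affymetrix arrays. The authors deposited linear MAS5 signal intensity for each probe set, and per the labels' design text they used Microarray Suite 5.0 and GeneSpring, the role of GeneSpring being unstated. No source used here gives a scaling target, detection calls or pooling. The array named in the design text is not the one to which these probe set names belong, and genes were named from annotation that fits the names, updated through RefSeq (GRCm38.p6, 20351 of 20380 probe sets with 1 symbol). A further 691 had several symbols and 1555 had none.

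The 2% trimmed means of the deposited intensity ran from 140 to 256 per array, and factors of 1.95 to 3.56 brought them to 500. Values under the 40th percentile (122) were set to it, log2 was taken, and the 16410 of 22626 non-control probe sets at or above it on at least 1 array were tested with limma 3.58.1 under R 4.3.3 (two-sided moderated test, Benjamini-Hochberg threshold 0.05 over all). Levels by Tbk1 and Ikbke used 4 genotype means (1 residual degree of freedom), the average B-DNA response used genotype as a block (3 residual degrees of freedom), and its dependence on each gene had 1 residual degree of freedom. Genotype contrasts with treatment as a term were added after seeing the data. Single pairs of arrays were counted from 2-fold upward where the brighter array reached 243, without a test. Precision is limited by the number of arrays, which may not be separate cultures. The planned fits, the contrasts of each mutant with WT and the interaction were tested on simulated data, where the fits of the Tbk1 and Ikbke levels called no change.

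The members and all gene lists were chosen with earlier results of these data known. Every member probe set is named. From each list discussed, up to 4 genes are named, those past the test with the largest difference, or else those with the highest signal, and the 3 genes nearest in pattern to each member. Col10a1, Col1a1, Col1a2, Sp7, Dmp1, Kdr, Egfl7, Krt8, Csf1r, Cd14 and Laptm5 are named in addition, after their values were seen. Lists follow 1 probe set per gene, the one with the highest mean signal. Alternatives changed the scaling, floor, filter, probe set choice and the arrays used.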

Additional observations from a re-analysis of the deposited data

Results flagged for a closer look

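For 11 proteoglycan probe sets the difference between cells without and with Tbk1 differed by Ikbke genotype, as tested by the Tbk1 by Ikbke interaction in the fit added after seeing the data (limma adjusted p under 0.05). The values below are log2 differences of the difference without Ikbke minus the difference with it. The interaction was 3.72 for Lum (1423607_at), a lower bound, since both Tbk1-/- signals were under the floor. It was 2.31 and 1.13 for the Aspn probe sets 1416652_at and 1448421_s_at, the second a lower bound for the same reason, and 1.73 for Dcn (1449368_at). For Fmod it was 0.91 (1437718_x_at) and 1.14 (1437324_x_at), and the other 4 Fmod probe sets did not pass. It was negative for Prelp, at -3.87 (1416321_s_at) and -3.92 (1416322_at, double mutant under the floor), and for Ogn, at -0.94 (1419662_at) and -0.78 (1419663_at). For Omd (1418745_at) it was -2.70, with all 4 arrays without Tbk1 under the floor, so that only the difference between Ikbke-/- and WT cells was measured. Each value rests on 2 arrays per genotype, and leaving out 1 array left 0 to 4 of the 18 probe sets past the test.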

How the results depend on the processing

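The log2 differences of the 8 genes kept their sign under the alternatives run, except for 2. Fmod in Ikbke-/- cells against WT (0.02) became -0.02 with quantile normalization and lay between -0.16 and 0.20 with an array left out (-0.08 in another of these fits), and the Bgn interaction (0.45) became -0.32 without further scaling and lay between 0.06 and 0.56 otherwise. In all, 520 single values stayed on their side of the threshold, 151 lost the call, 1 gained it and 4 turned sign. Leaving out 1 array gave 0 to 4 member probe sets (0 to 633 of all) for the double mutant against WT, 0 to 4 (0 to 60) for Tbk1-/- against WT, 0 (0 to 5) for Ikbke-/- against WT and 0 to 4 (1 to 658) for the interaction. With the double mutant against WT, 0 passed without either WT array. In those fits the lone array of a genotype is assumed to vary like the others. With the 8 arrays as units, the Tbk1 level called 1 member, Aspn (1448421_s_at), and 60 of all, and the Ikbke level 1 member, Dcn, and 56 of all. The Ikbke level called 1 of all with probe sets above the floor on all 8 arrays. The dependence of the response on Tbk1 went to 144 without further scaling, 59 with the floor at the 20th percentile, 96 without a floor and 0 without a filter, in place of 249. The double mutant against WT called 4 members without a filter and 3 with all arrays above the floor, and 1215 (no further scaling), 1257 (lower floor) and 869 (no filter) of all, in place of 2059. Tbk1-/- against WT called 4 members without further scaling, 5 with the lower floor and 5 without a filter, and 195 (no further scaling) and 173 (no filter) of all, in place of 505. Ikbke-/- against WT called 3 members without a filter and 3 with all arrays above the floor, and 124 (no further scaling), 210 (lower floor) and 139 (no filter) of all, in place of 418. The interaction called 6 members without further scaling and with the lower floor, 7 without a floor, without a filter and with all arrays above the floor, and 1492 (lower floor) and 998 (no filter) of all, in place of 2288. Among single pairs, 1 member passed between B-DNA and mock in the double mutant without further scaling and with quantile normalization (Prelp), 1 in Tbk1-/- cells with the lower floor (Omd), 4 between Tbk1-/- and WT B-DNA arrays without further scaling, in place of 9, and 12 between double mutant and WT mock arrays (2 higher and 10 lower), in place of 6. Without further scaling the median of all probe sets moved to -0.29 for the double mutant against WT, in place of 0.03, and to -0.43 for the interaction, in place of 0.14. The cause of these changes was not tested, beyond the fewer arrays or other probe sets that an alternative itself uses. The B-DNA fit pairs arrays by genotype, and the labels carry no replicate numbers for another pairing.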
